A study of Canis lupus familiaris with 20 samples.

Results

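The change of gene expression in canine mammary cancer cells after co-culture with macrophages was compared between the adenocarcinoma lines CMT-W1 and CMT-W2 and the other lines CMT-U27, CMT-U309 and P114. All 10 cancer cell arrays of the 20 arrays in the series were used, 4 of adenocarcinoma lines and 6 of the other lines. In each array, RNA of cancer cells sorted from a co-culture was hybridised against RNA of the same line grown in mono-culture. Monocytes positive for CD64 were taken from the blood of healthy dogs and layered on the CMTMR-stained cancer cells. After at least 72 h the co-cultures were harvested with trypsin and the stained cells were sorted by flow cytometry. Mono-cultured cells were instead washed and scraped, with no sorting described, so every ratio also holds this difference in handling. Its part in the ratios was not tested. By the study's description, CMT-W1 and CMT-W2 came from adenocarcinomas, CMT-U27 from a simple carcinoma, CMT-U309 from a spindle-cell tumour and P114 from an anaplastic carcinoma. Every line was represented by 1 co-culture and 1 mono-culture, measured on 2 arrays with the dyes exchanged, so the comparison rests on 5 values per gene, 2 against 3. The study describes the pairs as dye swaps although the labels call their arrays biological replicates, and the p-values below measure the spread between lines. All values are log2 ratios with the co-culture in the numerator, averaged over the pair, and a difference between groups is the adenocarcinoma mean minus the mean of the other lines.

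Tumour-associated macrophages are known to exchange signals with mammary carcinoma cells. Cancer cells release colony-stimulating factors and chemokines that recruit and maintain macrophages, and macrophages return cytokines, growth factors and proteases that act on the tumour cells and their matrix. CSF2 (GM-CSF) is a growth factor of granulocytes and macrophages, and MMP9 is a secreted gelatinase that degrades basement membrane collagen. Both have been linked to invasion and vessel growth in breast cancer, in which VEGFA is the main angiogenic factor.

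No gene passed the threshold for a different response in the adenocarcinoma lines. Of 18242 genes tested, 0 (0%) had an adjusted p under 0.05 in limma, and the smallest adjusted p was 0.283. At an unadjusted p under 0.05, 2832 genes (15.5%) stood apart, 1803 of them (9.88%) with the higher value in CMT-W1 and CMT-W2 and 1029 (5.64%) with the lower. The lines of the groups did not overlap in 7199 genes (39.5%). The median difference over all tested genes was 0.12, and its median size without sign was 0.56. Every gene described below therefore failed the correction for multiple testing, and its values stand as a description of these 5 co-cultures.

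The lines differed in array signal and in the level of macrophage transcripts. The share of spots well above background was lowest in CMT-W1 (52.8% in the co-culture channel, 48.2% in the mono-culture channel, mean of both arrays) and highest in CMT-U309 (81.7% and 83.0%). One CMT-U309 array carried 9870 outlier-marked spots, so 2241 of the tested genes had no value in that line. The log2 ratios were spread with an SD of 1.00 in CMT-W1, 1.06 in CMT-W2 and 1.03 in P114, against 1.54 in CMT-U27 and 1.34 in CMT-U309. The arrays of a pair correlated across genes between 0.84 (CMT-W1) and 0.95 (CMT-U27). For each line, probes were taken whose level in macrophages grown alone exceeded the mean of the 4 remaining cancer lines grown alone at least 16-fold, and their median level, as a percentage of that in the macrophages, was 5.21% in co-cultured CMT-W1, 16.8% in CMT-W2, 10.6% in P114, 19.9% in CMT-U309 and 79.9% in CMT-U27. In mono-culture these levels lay between 2.11% and 5.71%. Fewer cells of a type and less RNA per cell cannot be told apart in such bulk samples. CMT-W2 and CMT-U309 shared a slide, CMT-U27 and P114 shared another and CMT-W1 lay on a slide of its own among cancer cell arrays, so only the first of these slides held both groups.

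**Figure D1:**
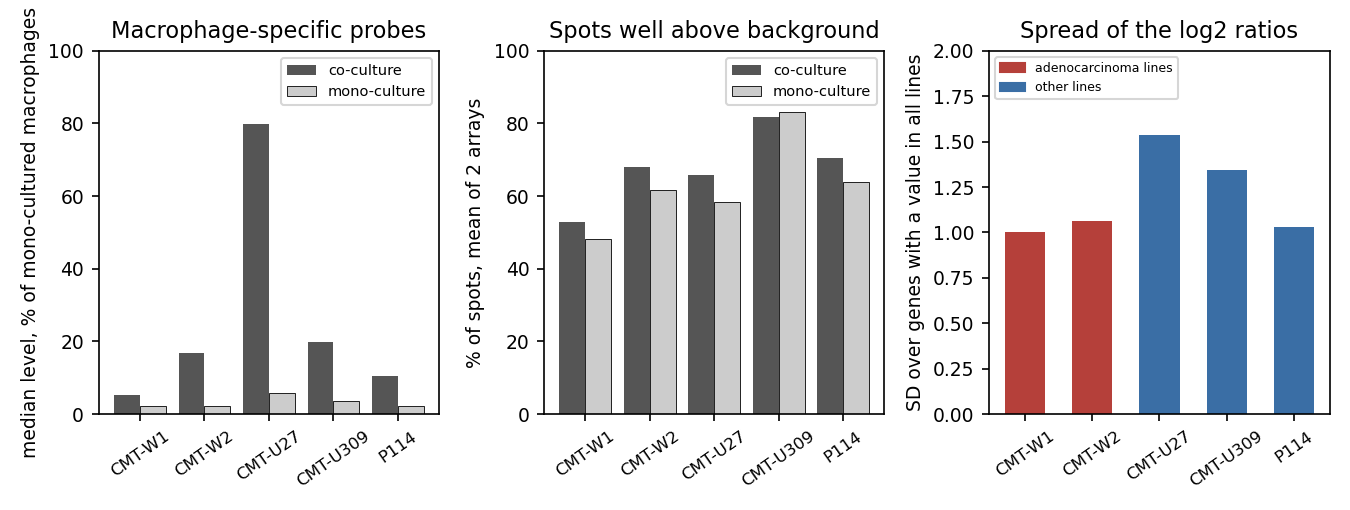
Bars show, for each cancer cell line, the median level of macrophage-specific probes as a percentage of mono-cultured macrophages (left), the percentage of spots well above background (middle) and the SD of log2 ratios over genes with a value in all lines (right). CMT-U27 stands alone at 79.9% of the macrophage level in co-culture, and CMT-W1 has the lowest share of spots above background in both channels.

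CSF2 was higher in co-culture than in mono-culture in every line, and by more in both adenocarcinoma lines. The log2 ratio was 5.28 and 5.85 on the CMT-W1 arrays and 5.35 and 5.99 on the CMT-W2 arrays. It was 3.58 and 4.37 in CMT-U27, 2.33 and 1.65 in CMT-U309, and 3.07 and 3.14 in P114. All 4 arrays of the adenocarcinoma lines lay above all 6 arrays of the other lines. As pair means these were 47.4-fold in CMT-W1 and 51.0-fold in CMT-W2, against 15.7-fold, 3.98-fold and 8.61-fold in CMT-U27, CMT-U309 and P114. The group means were 5.62 ± 0.07 (SD, n = 2 lines) and 3.02 ± 0.99 (SD, n = 3 lines), a difference of 2.59 with a limma standard error of 0.61 and a 95% interval of 1.08 to 4.11. The unadjusted limma p was 0.00585 and the adjusted p 0.283. An exact permutation test over the 5 lines gave a two-sided p of 0.2, the smallest that 2 against 3 values allow. Within the slide that held both groups, CMT-W2 exceeded CMT-U309 by 3.68. This sets a single line of each group side by side from the pair means above, so it adds no separate support.

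A second CSF2 probe, dimmer over these arrays, did not show the same order. Its log2 ratios were 1.67 in CMT-W1 and 5.06 in CMT-W2, against 4.17 in CMT-U27, 2.16 in CMT-U309 and 5.05 in P114. CMT-W1 was the lowest line on this probe and the groups overlapped, with a difference of -0.43. The higher response of CSF2 in CMT-W1 thus rests on 1 of 2 probes.

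The channel levels showed where the lines started, although levels from different arrays carry dye and array effects. On the log2 scale after quantile normalization of average intensities, the mono-culture level of CSF2 was 13.16 in CMT-W1 and 12.09 in CMT-W2, close to the 11.91 of P114 and above 5.75 in CMT-U27 and 7.84 in CMT-U309. In co-culture it was 18.73 and 17.76 in the adenocarcinoma lines, 15.02 in P114, 9.72 in CMT-U27 and 9.83 in CMT-U309. These levels are those of the brighter CSF2 probe. On it the adenocarcinoma lines held the highest level in co-culture, and P114 was nearer to them than to its own group. The CSF2 spot of mono-cultured CMT-U27 was well above background on only 1 of its 2 arrays. On the same probe, the macrophages sorted from these co-cultures had log2 ratios of 6.31 with CMT-W1 and 5.17 with CMT-W2, against 3.34, 2.98 and 3.76 with CMT-U27, CMT-U309 and P114. The second CSF2 probe did not show this order in the macrophages. Its ratios were 1.43 with CMT-W1 and 4.69 with CMT-W2, against 6.28, 4.62 and 5.56 with CMT-U27, CMT-U309 and P114.

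MMP9 was also higher in co-culture in every line. The log2 ratio was 3.39 and 4.21 on the arrays of CMT-W1 and 3.45 and 4.40 on those of CMT-W2. It was 3.23 and 3.47 in CMT-U27, 1.80 and 2.44 in CMT-U309, and 1.90 and 2.58 in P114. The pair means of the adenocarcinoma lines lay above those of the other lines, but 1 of the 2 CMT-U27 arrays reached into the range of their single arrays. As folds these means were 14.0 and 15.2 in CMT-W1 and CMT-W2, 10.2 in CMT-U27, 4.34 in CMT-U309 and 4.74 in P114. The difference was 1.29 with a standard error of 0.48, a 95% interval of 0.12 to 2.47, an unadjusted limma p of 0.0358 and an adjusted p of 0.302. The exact permutation p was again 0.2, and CMT-W2 exceeded CMT-U309 by 1.81 on their shared slide. By real-time qPCR the study also reported more MMP9 in co-culture in every line, but the lines stood in another order. There CMT-U27 had the largest increase, and CMT-U309 exceeded CMT-W2, so the groups overlapped.

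The array carried 4 MMP9 probes. Besides the probe above, 2 gave differences of 1.65 and 0.84 in the same direction, whereas the remaining probe gave -0.89, with 2.54 in CMT-W1 against 4.18 to 6.15 in the other lines. In contrast to CSF2, the mono-culture level of MMP9 was lowest in the adenocarcinoma lines, 10.35 in CMT-W1 and 13.03 in CMT-W2, against 13.77 in P114, 15.34 in CMT-U309 and 15.94 in CMT-U27. After co-culture CMT-W1 (14.15) was still the lowest line and CMT-U27 (19.29) the highest. The macrophages of the same co-cultures had MMP9 ratios of the opposite sign with the adenocarcinoma lines, -4.10 with CMT-W1 and -3.92 with CMT-W2, against -0.84, 0.94 and -0.74 with CMT-U27, CMT-U309 and P114. All 4 probes gave values under -3.9 in the macrophages of both adenocarcinoma co-cultures.

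**Figure D2:**
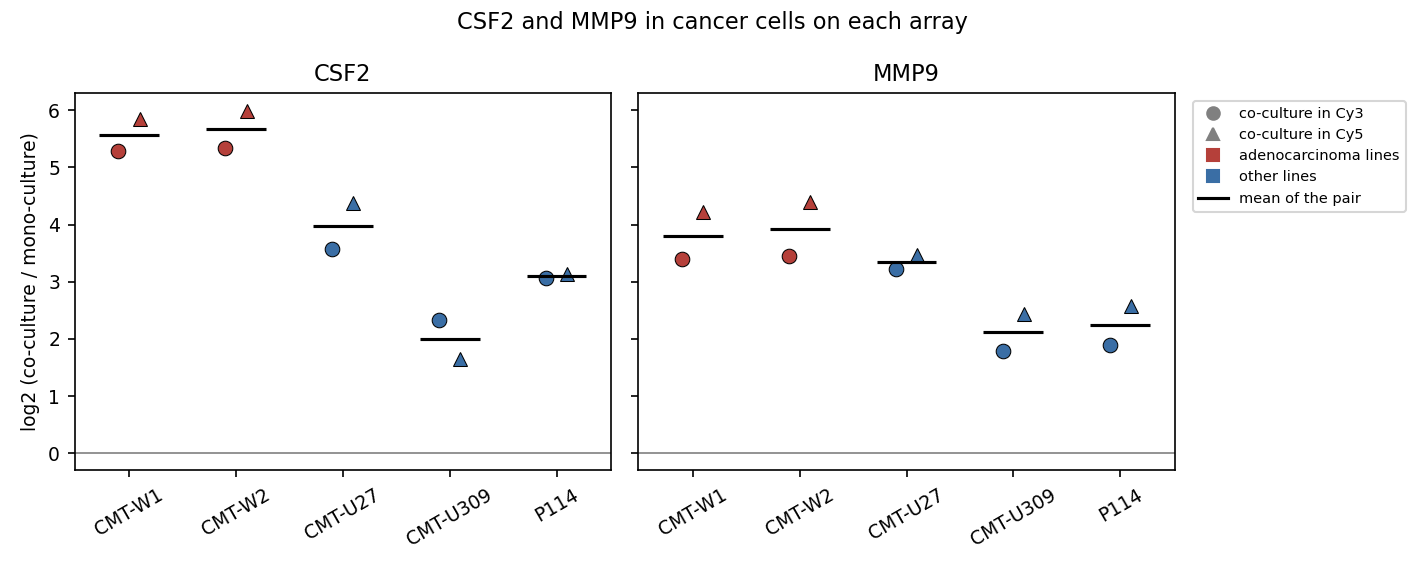
Each point is 1 array, with the log2 co-culture to mono-culture ratio on the vertical axis, the line on the horizontal axis and the marker showing the dye of the co-culture; bars are means of the pair. For CSF2 all arrays of CMT-W1 and CMT-W2 lie above 5.2 and all others below 4.4, whereas for MMP9 1 of the 2 CMT-U27 arrays reaches the range of the adenocarcinoma lines.

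VEGFA, the vascular endothelial growth factor, was higher in co-culture in both adenocarcinoma lines and close to its mono-culture level in the others. The log2 ratio was 2.76 and 2.75 on the CMT-W1 arrays and 1.89 and 1.91 on the CMT-W2 arrays. The values of the other lines were -0.03 and 0.19 in CMT-U27, -0.53 and -0.28 in CMT-U309, and 0.26 and 0.65 in P114. No array of one group reached the range of the other. The difference was 2.29 with a standard error of 0.45 and a 95% interval of 1.18 to 3.39 (limma adjusted p = 0.283). On their shared slide CMT-W2 exceeded CMT-U309 by 2.31. The second VEGFA probe gave a difference of 1.94, with 4.15 in CMT-W1 and 2.53 in CMT-W2, but CMT-U27 at 3.16 lay between them.

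The groups stood further apart in their VEGFA level in mono-culture than in co-culture. The log2 mono-culture level was 10.74 in CMT-W1 and 12.85 in CMT-W2, against 15.66 in CMT-U27, 15.74 in P114 and 16.69 in CMT-U309. In co-culture the adenocarcinoma lines were at 13.50 and 14.75, still below the 15.74 to 16.29 of the other lines. The gap between the group means was thus -4.24 in mono-culture and -1.95 in co-culture.

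ADM (adrenomedullin), a vasodilator peptide induced by hypoxia as VEGFA is, showed a similar order with more spread. Its log2 ratios were 1.80 in CMT-W1, 2.61 in CMT-W2, 1.16 in CMT-U27, -0.87 in CMT-U309 and -1.49 in P114. CMT-U27 lay nearer to the adenocarcinoma lines than to its own group. The difference was 2.60 with a standard error of 0.83 (limma adjusted p = 0.283). Of the 5 tested genes on a list of hypoxia-induced genes, 2 (VEGFA and ADM) had an unadjusted p under 0.05, both higher in the adenocarcinoma lines, and none was lower at that level. Over all genes, 9.88% were higher and 5.64% lower at that level. The list's median difference was 2.29, beside 0.12 over all genes. CA9, a carbonic anhydrase, had ratios of 0.36 and -0.29 in the adenocarcinoma lines and -2.37, -4.65 and -0.64 in the other lines, a difference of 2.58 (adjusted p = 0.342). TFRC, the transferrin receptor (-0.18), and the glucose transporter SLC2A1 (0.08) made up the rest of the list and were named after their values were seen.

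**Figure D3:**
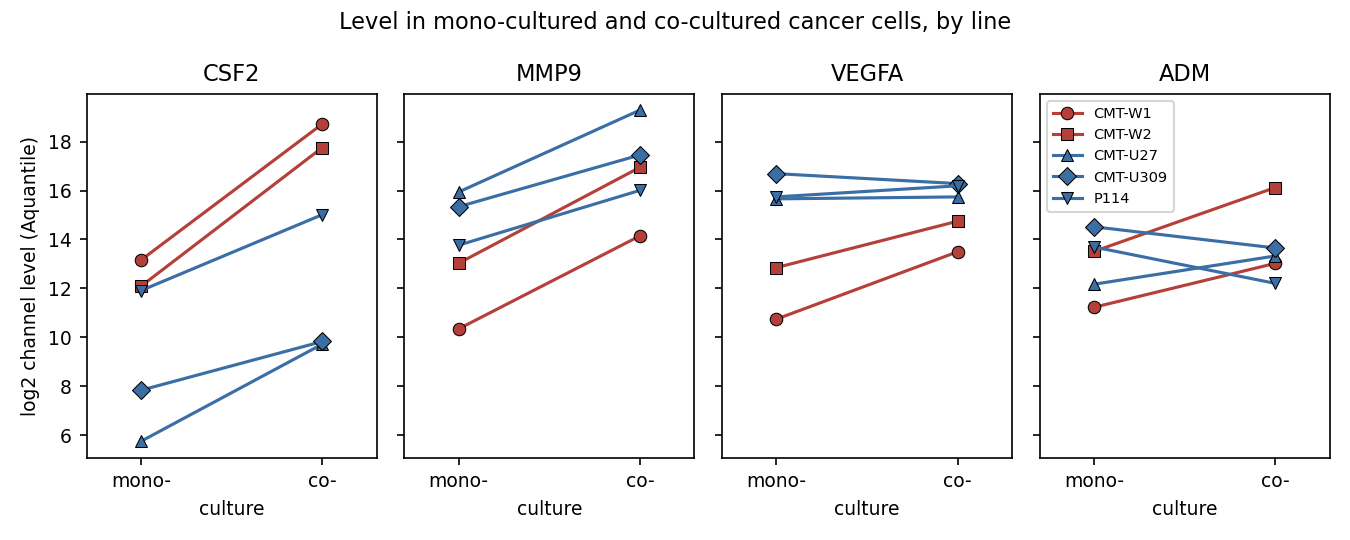
Lines join the log2 channel level of CSF2, MMP9, VEGFA and ADM in mono-cultured (left) and co-cultured (right) cancer cells, 1 line per cell line, means of both arrays, with red for the adenocarcinoma lines and blue for the others. VEGFA starts lowest in CMT-W1 (10.74) and CMT-W2 (12.85) and approaches the nearly flat levels of the other lines, while CSF2 is highest in CMT-W1 and CMT-W2 after co-culture.

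Among the 587 tested genes with a symbol, 54 were higher and 33 lower in the adenocarcinoma lines at an unadjusted p under 0.05, together 14.8%, which is near the 15.5% of all genes. The 20 with the smallest p among those whose groups did not overlap had p between 0.000529 and 0.0121, 12 with the higher ratio in the adenocarcinoma lines and 8 with the lower. In 14 of these 20 genes the adenocarcinoma mean was the one nearer to 0. The same held for 77% of the 2832 genes at an unadjusted p under 0.05 and for 64.2% of all genes.

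HSP70, the inducible heat-shock protein, was much lower in co-culture than in mono-culture in the other lines and nearer to 0 in the adenocarcinoma lines. Its log2 ratios were -0.59 in CMT-W1 and -0.67 in CMT-W2, and -2.49 in CMT-U27, -4.75 in CMT-U309 and -5.37 in P114. In P114 the mono-culture exceeded the co-culture 41.3-fold and in CMT-U309 26.8-fold, beside 1.5-fold and 1.59-fold in the adenocarcinoma lines. The difference was 3.58 with a standard error of 0.87 (limma adjusted p = 0.283). The 4 HSP70 probes gave differences of 3.58, 3.91, 5.35 and 6.63, and on none did the groups overlap. On 3 of them CMT-W1 had a positive ratio, between 0.35 and 2.69. In mono-culture the log2 level of HSP70 was 17.10 in CMT-U309 and 17.21 in P114, above 14.57 in CMT-W1, 14.39 in CMT-W2 and 12.69 in CMT-U27. Of the 6 other tested chaperone genes 5 also had a positive difference, with a median of 0.24 and none at an unadjusted p under 0.05. HSP90B1, the chaperone of the endoplasmic reticulum, had the largest difference among them, 1.45 (adjusted p = 0.325), and HSPB1, a small heat-shock protein, 1.3 (adjusted p = 0.405).

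Several genes had ratios of opposite sign in the groups on every array. DBI, which binds acyl-CoA and the benzodiazepine site, had log2 ratios of -0.93 in CMT-W1 and -0.92 in CMT-W2 and of 1.51, 1.22 and 0.97 in CMT-U27, CMT-U309 and P114. Its difference was -2.16 with a standard error of 0.34 (limma adjusted p = 0.283). MITF, a transcription factor of melanocytes and of macrophage-derived cells, had -0.94 and -1.01 against 1.35, 1.08 and 0.67, a difference of -2.0 on the brighter probe and -1.97 on the second. Its mono-culture level was higher in the adenocarcinoma lines (12.26 and 10.84) than in the others (7.13 to 9.06). The RNA helicase DDX39B had -1.22 and -1.07 against 0.93, 1.43 and 0.57, a difference of -2.12. Positive in the adenocarcinoma lines and negative in the others were MAPT, SNAP91 and CYB5R3. MAPT, the microtubule protein tau, had 0.19 and 0.57 against -3.86, -2.81 and -1.79. Its co-culture spot was well above background on only 4 of 6 arrays of the other lines. With another background correction and normalization (normexp and loess) its difference of 3.20 became 1.27. SNAP91, a clathrin adaptor, had 0.27 and 0.68 against -1.03, -1.14 and -0.49. CYB5R3, a cytochrome b5 reductase, had 1.42 and 0.28 against -0.60, -0.75 and -0.79.

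In others of the 20 the other lines departed further from 0. DLC1, a GTPase-activating protein, had ratios of -0.07 and -0.05 in the adenocarcinoma lines and of 1.67, 2.01 and 1.09 in the others. The glutamate transporter SLC1A1 had -0.82 and 0.10 against -4.07, -3.29 and -2.66. TFF2, a trefoil peptide of mucous epithelia, had -0.09 and -0.48 against -2.16, -2.53 and -1.52. The transporter ABCA4 (difference 1.13) and the olfactory receptor OR52N2G (2.53) behaved alike. VPS52, of a vesicle-tethering complex, had a difference of 1.71 on its brightest probe but of -0.73 and -0.13 on the other measured probes. In a further pair the adenocarcinoma lines departed further from 0. EDN2, a vasoconstrictor endothelin, had -1.56 and -0.97 against 0.36, 0.44 and -0.03 (difference -1.53, and -1.33 on its second probe). The reductase DHRS4 had -1.71 and -1.08 against -0.17, 0.17 and 0.48, with a difference of -1.56 on this probe and -0.38 on its second. PPT1, a lysosomal thioesterase, had 1.75 and 2.09 in the adenocarcinoma lines and 3.62 and 3.43 in CMT-U27 and CMT-U309. P114 had no value because of outlier marks, and with the marked spots kept the difference moved from -1.60 to -0.14 (limma adjusted p = 0.968). CREM, a cAMP-responsive factor, had 0.80 and 0.18 against 3.15, 2.29 and 1.72, a difference of -1.90. Its mono-culture spot was well above background on only 3 of 6 arrays of the other lines. With normexp and loess the CREM difference was -0.38.

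**Figure D4:**
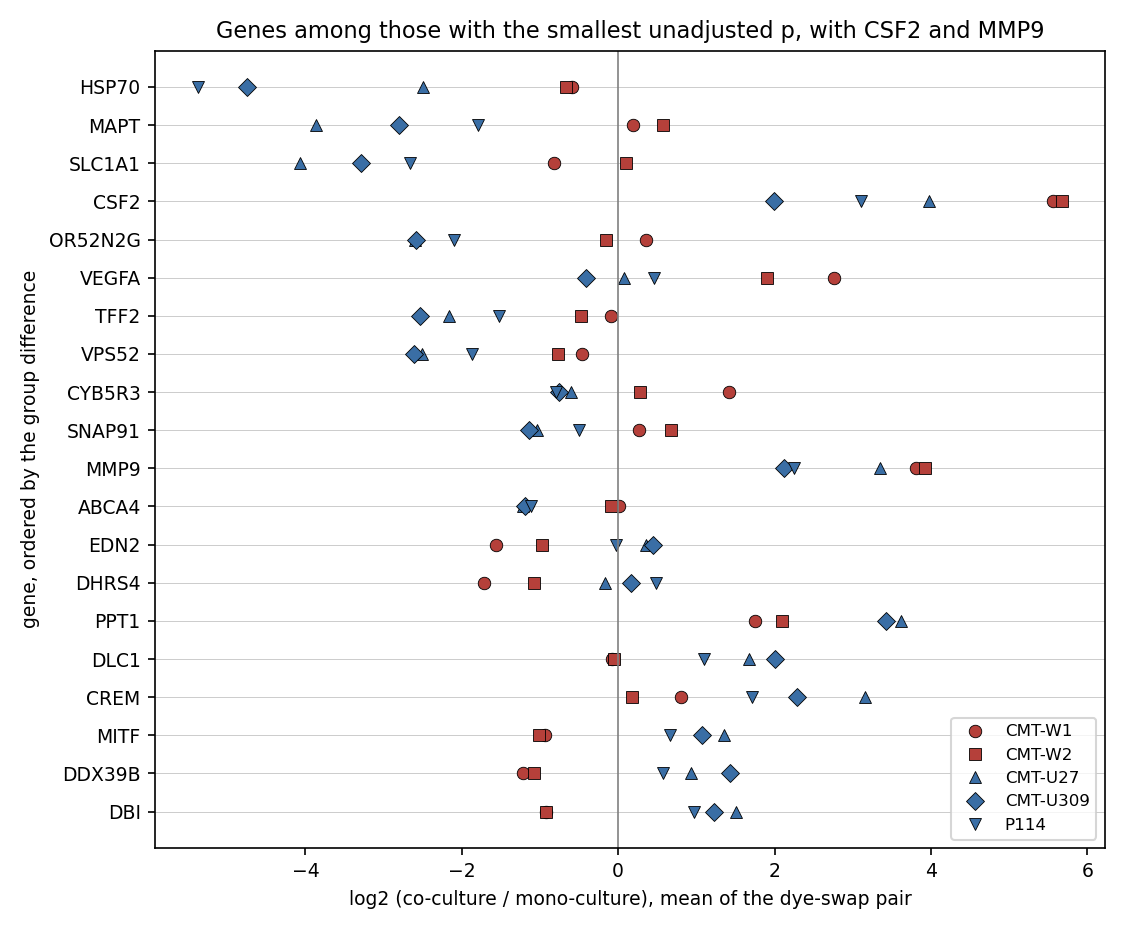
Points show the log2 co-culture to mono-culture ratio (horizontal axis, mean of the dye-swap pair) for each cell line, in red for the adenocarcinoma lines and blue for the others, for MMP9 and genes with a symbol and the smallest p (CSF2 among them), ordered by the group difference. HSP70 has the largest difference (3.58) and DBI the lowest (-2.16), and no gene shown passed the adjusted threshold.

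Other secreted factors differed in both directions. Of 18 tested cytokines and growth factors, 3 (VEGFA, CSF2 and ADM) were higher in the adenocarcinoma lines at an unadjusted p under 0.05 and 0 lower, beside 9.88% and 5.64% of all genes, with a median difference of 0.16. Over all genes the groups did not overlap in 39.5%. In this list they did not overlap in 9 of the 18, 6 with the higher value in the adenocarcinoma lines and 3 with the lower. Among the latter IL1A, an inflammatory cytokine, had 2.36 and 5.61 against 6.47, 5.76 and 6.06 (difference -2.11, adjusted p = 0.348), and the endothelin EDN1, named after its values were seen, a difference of -1.62 (adjusted p = 0.324). Of 8 tested chemokine ligands none reached that level, although 7 differences were positive and the median was 0.74. CCL3, a chemokine of monocytes, had 5.74 and 6.0 against 5.29, 4.18 and 4.97 (difference 1.06, adjusted p = 0.327). CCL20, which attracts lymphocytes and dendritic cells, ranged from -0.86 in CMT-U27 to 7.02 in P114, with 0.46 in CMT-W1, 3.50 in CMT-W2 and no value in CMT-U309, so its difference of -1.11 was far within the spread (adjusted p = 0.864) and was 0.42 without CMT-W1. Of 5 tested chemokine receptors none reached that level, with a median of -0.50. CXCR3 had a difference of -1.20 (adjusted p = 0.438) and CXCR2, the receptor of CXCL8, 0.90 (adjusted p = 0.363).

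The 8 tested cytokine and growth factor receptors had a median difference of 0.51. At an unadjusted p under 0.05, 1 was higher and 0 lower, beside 9.88% and 5.64% of all genes. This was ERBB2 (HER2), a receptor tyrosine kinase of mammary carcinomas, with log2 ratios of -0.08 in CMT-W1 and 0.22 in CMT-W2, and of -0.92, -1.41 and -0.83 in CMT-U27, CMT-U309 and P114. The adenocarcinoma lines were near 0 and all other lines negative, a difference of 1.13 with a standard error of 0.36 (limma adjusted p = 0.283). The kinases MET (1.98, adjusted p = 0.411) and KIT (1.46, adjusted p = 0.401) had larger differences with more spread. KIT was well above background on only 2 of 4 adenocarcinoma arrays in each channel.

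The proteases and their inhibitors contained 2 of 6 tested genes at an unadjusted p under 0.05, MMP9 and TIMP1, both higher in the adenocarcinoma lines. At that level 9.88% of all genes were higher and 5.64% lower. The list median was 0.30. TIMP1, an inhibitor of matrix metalloproteinases, had ratios of 0.07 in CMT-W1 and 0.80 in CMT-W2 against -2.36, -1.58 and -0.54 in CMT-U27, CMT-U309 and P114. The groups did not overlap on either of its probes, with differences of 1.93 (limma adjusted p = 0.283) and 1.62. On single arrays the values of TIMP1 in the adenocarcinoma lines all lay above those of the other lines.

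Of 9 tested prostaglandin and inflammation enzymes, 2 were higher and 1 lower at an unadjusted p under 0.05, beside 9.88% and 5.64% of all genes. The median difference was 1.03. PTGES, the prostaglandin E synthase, had 3.90 and 4.89 against 3.31, 3.39 and 3.21 (difference 1.09, adjusted p = 0.306). With normexp and loess its difference was only 0.20. The endothelial nitric oxide synthase NOS3 was less negative in the adenocarcinoma lines (difference 1.11, adjusted p = 0.283), but its 2 other measured probes gave differences of 0.09 and 0.18. SOD1, the cytosolic superoxide dismutase, was lower, with -0.18 and 0.43 against 1.0, 1.51 and 1.3 (difference -1.15, adjusted p = 0.283). HMOX1, the heme oxygenase, had 1.51 and 1.66 in the adenocarcinoma lines and 2.17 in CMT-U27, but -2.02 in CMT-U309 and -2.93 in P114. The groups thus overlapped despite a difference of 2.51 (adjusted p = 0.447). The mono-culture spot of HMOX1 was well above background on only 1 of 4 adenocarcinoma arrays.

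The apoptosis list had the lowest median of the 20 lists. Of its 14 tested genes 12 had a negative difference and 2, BAK1 (0.61) and PMAIP1 (0.28), a positive one, and the median was -1.05. At an unadjusted p under 0.05, 2 were lower and 0 higher, beside 5.64% and 9.88% of all genes. CYCS, cytochrome c, had -0.12 and 0.16 against 0.86, 3.30 and 2.29 (difference -2.13, adjusted p = 0.287). BAX, a pore-forming activator of apoptosis, had -0.75 and 0.12 against 1.93, 0.30 and 1.24 (difference -1.47, adjusted p = 0.316). Its second probe gave -0.84 with overlapping groups. CASP4, an inflammatory caspase, had 0.81 and 2.86 against 5.88, 2.95 and 3.42 (difference -2.25, adjusted p = 0.361). BCL2L1, an inhibitor of apoptosis, had a difference of -1.78 and BCL2, another inhibitor, of -1.61 (adjusted p = 0.324 and 0.575). BAX, BAK1 and PMAIP1 were named after their values were seen.

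The epithelial list had 4 tested genes, 2 of them higher and 0 lower at an unadjusted p under 0.05, ERBB2 (also on the receptor list) and CLDN3. At that level 9.88% of all genes were higher and 5.64% lower. The list's median difference was 1.01. CLDN3, a claudin of tight junctions, was lower in co-culture in every line with a value, with -1.49 and -0.35 in the adenocarcinoma lines against -2.37 and -2.38 in CMT-U27 and P114 (difference 1.45, adjusted p = 0.309). The mucin MUC1 differed by 0.89 (adjusted p = 0.474). The junction protein TJP1 went the other way, with a difference of -0.43 (adjusted p = 0.737). CLDN3, ERBB2 and TJP1 were well above background in both channels on all 10 arrays. In the co-culture channel the milk protein gene CSN2 was above background on 0 of 4 adenocarcinoma arrays and 1 of 6 others, and the junction gene DSG3 on 0 of 4 and 5 of 6. Of 9 tested mesenchymal and matrix genes none reached an unadjusted p under 0.05, with a median difference of -0.76. COL1A2, a collagen chain, ranged from -4.55 in CMT-U27 to 3.29 in CMT-U309, and the calcium-binding protein S100A4 differed by -1.22 (adjusted p = 0.477).

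Macrophage markers were higher in co-culture in nearly every case, in both groups. Of 15 markers on the array, 13 had a positive ratio in CMT-W1 and 15 in each of the other lines, with median ratios of 2.13 in CMT-W1, 3.76 in CMT-W2, 5.24 in CMT-U27, 2.71 in CMT-U309 and 3.25 in P114. The summed linear level of the 15 markers in co-culture was 29780 and 151530 in CMT-W1 and CMT-W2 and ranged from 77596 in P114 to 922370 in CMT-U27. In mono-culture it lay between 11577 and 66408. The 11 markers tested had a median difference of -0.47. At an unadjusted p under 0.05, 1 was lower and 0 higher, beside 5.64% and 9.88% of all genes. This was FCER1G, a signalling chain of Fc receptors, with 1.66 and 2.43 against 3.94 and 3.25 in CMT-U27 and P114 (difference -1.55, adjusted p = 0.288). Its second probe, with a value in every line, gave a difference of -0.30 with overlapping groups, and with outlier-marked spots kept the first gave -0.69. CD163, the scavenger receptor of macrophages, had 2.11 in CMT-W1 but 7.28 in CMT-W2, above the 5.88 to 7.13 of the other lines, so the adenocarcinoma lines lay on both sides of them, and the sign of its difference (-1.98) turned on the slide with both groups. In mono-cultured adenocarcinoma lines CD163 was not well above background on any array, and its log2 co-culture level was 7.5 in CMT-W1 and 11.81 in CMT-W2. The part of these macrophage transcripts in the differences of CSF2, MMP9 and the other genes was not tested.

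The remaining lists were described by counts at an unadjusted p under 0.05, at which 9.88% of all genes were higher and 5.64% lower. Of 18 tested lysosomal and antigen-processing genes 1 was lower, ATP6V0E1, a subunit of the proton pump (1.67 and 1.67 against 2.95, 2.96 and 2.16, difference -1.02, adjusted p = 0.311), and the median was -0.01. The cathepsins CTSC (2.02, adjusted p = 0.394) and CTSD (-1.24, adjusted p = 0.369) had differences of opposite sign, but with normexp and loess that of CTSC was -0.18. Of 14 transporters 2 were higher, the sodium pump subunit ATP1B1 (1.35 and 1.21 against -1.0, -2.94 and 0.01, difference 2.59, adjusted p = 0.283) and the inositol transporter SLC5A3 (difference 1.0, adjusted p = 0.316, named after its values were seen), with a median of 0.50, and ABCC4, an exporter of cyclic nucleotides and prostaglandins, differed by 1.40 (adjusted p = 0.326). No gene reached an unadjusted p under 0.05 among 5 interferon-stimulated genes (median 0.60), 9 cell cycle and DNA replication genes (median -0.57), 4 adhesion molecules (-0.31), 4 Toll-like receptors (0.14), 4 cytosolic ribosomal proteins (-0.78) and 4 lymphocyte markers (-0.25). The interferon-induced OAS1 had 4.36 and 4.23 against 4.14, 1.98 and 2.25 (difference 1.5, adjusted p = 0.361, but -0.37 with normexp and loess), and OAS2 4.62 and 2.97 against 5.18, -0.47 and 0.96. BIRC5, the inhibitor survivin, differed by -1.27 (adjusted p = 0.598) and was negative in CMT-W1, CMT-W2 and CMT-U27 and positive in CMT-U309 and P114. The adhesion genes CD47, the signal that restrains phagocytosis, and ICAM1 differed by -1.57 (adjusted p = 0.345) and -0.37 (adjusted p = 0.828). The ribosomal protein gene RPL27 differed by -1.02 (adjusted p = 0.487), TLR4 and TLR5 by 0.61 (adjusted p = 0.574) and -0.58 (adjusted p = 0.628), and the T cell markers CD4 and CD8A by -0.84 (adjusted p = 0.484) and 0.68 (adjusted p = 0.47). The sign of the difference turned for TLR4 with normexp and loess (-0.65), and for TLR5 (0.11) and ICAM1 (1.17) on the slide with both groups. In mono-culture CTSC, OAS1, OAS2 and TLR4 were well above background on only 2 of 4 adenocarcinoma arrays.

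**Figure D5:**
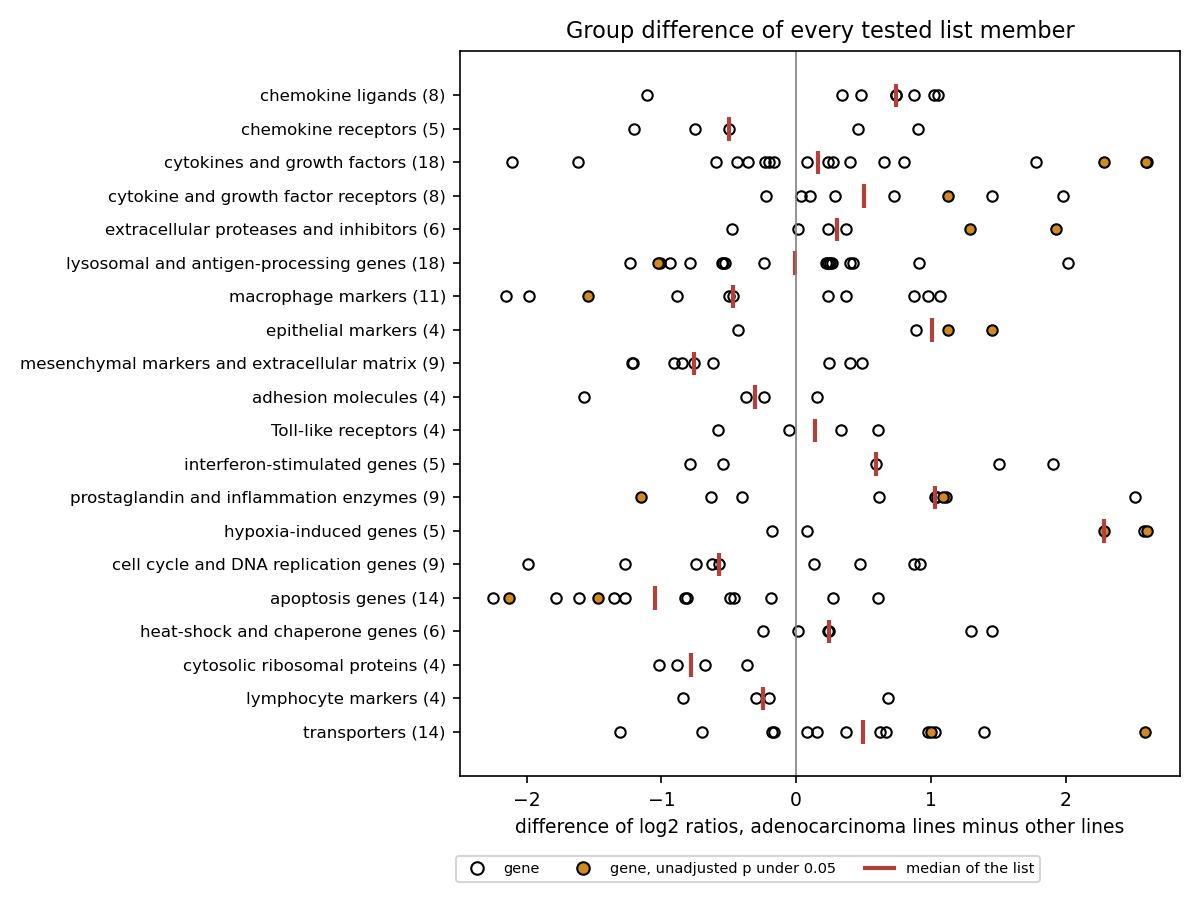
Each circle is 1 tested gene of a list, placed by its group difference of log2 ratios (horizontal axis), filled where the unadjusted p was under 0.05, with a red bar at the list median and the number of genes in brackets. Hypoxia-induced genes have the highest list median (2.29, 5 genes) and apoptosis genes the lowest (-1.05, 14 genes).

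The order of the 5 lines did not always follow the grouping. Across 15582 genes with a value in every line, the ratios of CMT-W1 and CMT-W2 correlated at 0.63, whereas CMT-U309 and P114 correlated at 0.78. CMT-U27 correlated somewhat more closely with the adenocarcinoma lines (0.60 with CMT-W1 and 0.64 with CMT-W2) than with its own group (0.51 with CMT-U309 and 0.59 with P114). CMT-W1 and CMT-U309 were least alike (0.29). Genes of the same arrays are not independent replicates. Over the 5 lines, the genes with a symbol most like CSF2, of 510 compared, were VWF (Pearson r = 0.999), B3GAT2 (0.998) and PIM1 (0.996), and those most like MMP9 were RPE65 (0.997), SLCO2A1 (0.996) and ANXA2 (0.985). Their ratios were small beside those of CSF2 and MMP9. The ratio of VWF lay between -1.47 in CMT-U309 and -0.10 in CMT-W2, and that of RPE65 between -0.54 in P114 and 0.02 in CMT-W2.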

How the data were processed

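Cancer cells of 5 lines, from co-culture and mono-culture, were measured on 10 2-colour Agilent arrays. The authors deposited scanner tables made with Feature Extraction (10.7.3.1), holding linear intensity signals, a log10 ratio of red over green after background correction and dye normalization, and other columns with 0 or 1 marks for spots above background and outliers. Their table of values per array, also deposited, equals this log10 ratio. Its sign was set so that positive values mean more signal from the co-culture, and it was converted to log2 and averaged over each dye-swap pair. A line had a value where neither array carried an outlier mark and the probe was well above background in at least 1 channel on each array. The brightest probe stood for each gene, which was tested where both adenocarcinoma lines and at least 2 of the other lines had a value. limma (3.58.1, R 4.3.3) compared 2 with 3 values, adjusted by Benjamini-Hochberg over 18242 genes. The RefSeq genes of assembly UU_Cfam_GSD_1.0 matched 1648 of 43603 probes and gave a symbol to 1638. No coordinates are given, since the array follows another build. Channel levels used Aquantile normalization, carry no test and, between arrays, include dye and array effects. Scripts also used Python 3.11.15.

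Genes named were CSF2, MMP9, the 20 smallest p among genes with a symbol whose groups did not overlap, of each of 20 lists up to 4 members with the largest absolute difference (the first 2, and further ones mainly at an unadjusted p under 0.05), and the 3 genes most like CSF2 and MMP9. The members and lists were chosen with earlier results of these data known. The number of arrays limits the precision, and the fit was tested on simulated data. Alternatives covered background correction, centring, filters, probes, dye orientation, slide, replicate block, tests and each line left out. Some genes that this rule names are not reported here.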

Additional observations from a re-analysis of the deposited data

Results flagged for a closer look

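Of 12 measures compared over the 5 lines, 2 held a line far from the others, where chance sets apart about 1 in 20 groups. The co-cultured CMT-U27 cells carried macrophage-specific probes at 79.9% of the level of mono-cultured macrophages, with the next line at 19.9%. One array of CMT-U309 had 9870 outlier-marked spots, beside 1438 on the next.

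Of 70 named genes, 6 had ratios of one sign on all 4 arrays of the adenocarcinoma lines and of the opposite sign on all 6 arrays of the other lines. The differences, adenocarcinoma minus other lines, were -2.16 for DBI, -2.0 for MITF, -2.12 for DDX39B, 3.20 for MAPT, 1.37 for SNAP91 and 1.56 for CYB5R3. In limma none of these passed the adjusted threshold (adjusted p = 0.283 for each). By the pair means of the lines, a wider criterion than single arrays, ratios of opposite sign were found in 1604 of all 18242 genes tested. Part of the named genes were chosen because their groups did not overlap, so these shares cannot be compared.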

How the results depend on the processing

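No gene passed an adjusted p under 0.05 in limma or in most alternatives. The exceptions were 2 transcripts without a symbol (TC73662 and XM_536289) in the fit of 10 arrays with the replicate number as a block and the dye-swap pair as a random block, 1 of them also in a fit with the 5 macrophage pairs, and 1 other transcript by the methods' unpaired test after Benjamini-Hochberg adjustment. In the block fit the difference was 2.59 for CSF2 (adjusted p = 0.125) and 1.29 for MMP9 (adjusted p = 0.186). Array numbers mark the dye orientation, and the differences between the arrays of a pair correlated between lines at 0.22 to 0.39. The count at an unadjusted p under 0.05, 2832, became 4704 without the filter on dim probes (36905 genes) and 1305 with the slide as a fixed block, and lay between 1196 (without CMT-W1) and 3886 (without CMT-U27) when 1 line was left out. It was 1598 without CMT-W2 and 1737 without CMT-U309. Without CMT-W1, 47.3% of these genes were higher in the remaining adenocarcinoma line, against 63.7% with all lines.

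CSF2 and MMP9 kept their direction in all 23 and 24 alternatives, which took the probes of a gene only as their mean. Many of these, such as other tests, fits and outlier rules, left the differences at 2.59 and 1.29 and could not turn the sign. Leaving out a line or keeping only the slide with both groups could not turn it either, since the pair means of the groups did not overlap. The count of alternatives is therefore no measure of stability. Single probes did not all keep the direction: 1 of 2 CSF2 probes gave -0.43 and 1 of 4 MMP9 probes -0.89. CSF2 ranged from 1.08 (mean over its probes) to 4.81 (ratios of each line scaled to the same spread) and MMP9 from 0.72 to 2.94 in the same settings. Left-out lines gave 2.08 to 3.07 for CSF2 and 1.07 to 1.68 for MMP9. Of 70 named genes, 62 kept their direction throughout. With normexp and loess the sign turned for CTSC (-0.18), TLR4 (-0.65) and OAS1 (-0.37), and over all probes for TLR4 (-0.29). Other differences kept their sign with normexp and loess but became much smaller, among them those of PTGES (0.20), CREM (-0.38) and MAPT (1.27). It turned for TLR5 on arrays with the co-culture in Cy3 (0.036), and, within the slide with both groups or with the slide as a fixed block, for CD163 (1.40), ICAM1 (1.17) and TLR5 (0.11). COL1A2 turned with the slide as a random block (0.31). With 1 line left out the value ranged from -3.33 to 0.60 for COL1A2 (positive without CMT-W1 or CMT-U309), from -2.63 to 0.42 for CCL20, from -4.57 to 0.60 for CD163 and from -1.08 to 0.33 for ICAM1 (each positive without CMT-W1, ICAM1 also without CMT-U27). Equal spread turned CD163 (0.62) and ICAM1 (0.33). The cause was not tested. The alternatives with equal spread and with both channels above background on all arrays were chosen after seeing the data; CSF2 had no value in the latter.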
